A study of Homo sapiens with 6 samples.

Results

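ID1, ID2, ID3 and ID4, the inhibitors of DNA binding, and the SMAD genes of the BMP branch were examined in mesodermal progenitors made from human embryonic stem cells (hESC). The 10 genes were taken by name, as SMAD1, SMAD5 and SMAD9 (receptor SMADs of the BMP branch), SMAD4 (the common SMAD), SMAD6 and SMAD7 (inhibitory SMADs) and the 4 ID genes. They were read from the 29 probe sets annotated to 1 of these symbols alone, among 54675 probe sets on the array. All 10 were measured, of 19775 genes in all.

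The study compared 3 arrays of progenitors with 3 arrays of undifferentiated cells, all of the established line H9. The progenitors had been induced in Stemline II medium with BMP4, FGF2, VEGF and activin A, and sorted on day 3.5 for carrying CD56 (NCAM1) and lacking CD326 (EPCAM). The hESC were labelled only as undifferentiated, and the labels repeat the induction protocol for them, so their culture medium is not known here. Both groups come from 1 cell line, no unsorted cells were measured, and the labels do not say whether the arrays of a group are separate cultures. In sorted bulk cells, more cells with a transcript and more transcript per cell cannot be told apart.

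BMP ligands bind a pair of receptor kinases that phosphorylate SMAD1, SMAD5 and SMAD9. The activated SMADs join SMAD4, enter the nucleus and switch on targets, of which the ID genes are among the most direct. ID proteins have a helix-loop-helix but no DNA-binding region, and they hold E proteins away from the tissue-specific bHLH factors that need them as partners. SMAD6 and SMAD7 are themselves targets and damp the pathway, SMAD6 mainly against BMP and SMAD7 against BMP and TGF-beta alike. In the embryo BMP signalling patterns the posterior streak and the lateral mesoderm.

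Promoter sequence is shown for the 4 members that rose by more than 4-fold on the brightest probe set and for ID1. Matches to GGAGCC and GTCTAGAC, elements that SMAD proteins are known to bind, are marked. Other letters that SMAD proteins may bind are not marked. The windows are the 250 bases before the RefSeq start on GRCh38.p14, read 5′ to 3′ on the gene's strand. Capitals mark GGAGCC, a GC-rich element bound by BMP-branch SMADs, and GTCTAGAC, the palindromic SMAD-binding element, each searched on both strands, so that GGAGCC on the other strand reads GGCTCC. ID1 (chr20:31605039-31605288, plus strand) and ID4 (chr6:19837120-19837369, plus strand) hold GGAGCC in 2 places each, SMAD6 (chr15:66701986-66702235, plus strand) and SMAD9 (chr13:36920239-36920488, minus strand) in 3 places each. ID2 (chr2:8681806-8682055, plus strand) holds neither element in this window.
ID1: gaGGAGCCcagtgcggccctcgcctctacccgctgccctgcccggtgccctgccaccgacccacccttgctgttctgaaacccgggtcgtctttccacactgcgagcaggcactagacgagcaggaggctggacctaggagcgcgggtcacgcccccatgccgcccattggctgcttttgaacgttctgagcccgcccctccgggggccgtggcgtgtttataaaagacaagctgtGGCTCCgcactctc
ID2: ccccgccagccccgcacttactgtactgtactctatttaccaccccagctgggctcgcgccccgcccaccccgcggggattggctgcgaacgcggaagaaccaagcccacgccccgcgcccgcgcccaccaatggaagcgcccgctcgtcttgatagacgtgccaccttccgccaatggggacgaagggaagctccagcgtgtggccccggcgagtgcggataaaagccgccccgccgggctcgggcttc
ID4: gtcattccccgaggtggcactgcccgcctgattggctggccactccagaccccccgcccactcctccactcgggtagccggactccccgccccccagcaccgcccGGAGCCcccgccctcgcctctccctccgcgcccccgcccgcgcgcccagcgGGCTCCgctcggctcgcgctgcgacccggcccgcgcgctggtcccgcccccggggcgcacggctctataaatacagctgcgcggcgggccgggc
SMAD6: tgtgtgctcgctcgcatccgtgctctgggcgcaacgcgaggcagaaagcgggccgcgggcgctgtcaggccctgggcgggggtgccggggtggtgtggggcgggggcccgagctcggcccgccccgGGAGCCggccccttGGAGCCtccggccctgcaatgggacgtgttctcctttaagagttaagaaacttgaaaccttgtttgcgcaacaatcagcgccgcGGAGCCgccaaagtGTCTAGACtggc
SMAD9: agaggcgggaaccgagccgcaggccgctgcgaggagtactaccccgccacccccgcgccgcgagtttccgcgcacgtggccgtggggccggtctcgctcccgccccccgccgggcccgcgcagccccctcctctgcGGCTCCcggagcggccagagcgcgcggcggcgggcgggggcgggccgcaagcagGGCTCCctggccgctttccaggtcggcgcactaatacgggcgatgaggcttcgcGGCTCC
GGAGCC was present in 6 of the 10 member promoters (ID1, ID3, ID4, SMAD5, SMAD6 and SMAD9), and in 30% of 27305 promoters of this length. Those 6 windows had a GC content of 62% to 78.8%, against a median of 58% over all promoters. GTCTAGAC was present in 1, that of SMAD6, where it begins 12 bases before the start, and in 0.176% of all promoters. The palindrome GGCGCC, another GC-rich SMAD element, was found only in SMAD4 among the 10 and in 16.1% of all promoters. These elements can overlap by a few letters only. These are matches of letters in 1 window per gene and not measured sites.

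The labels were checked on marker genes. All 9 measured markers of pluripotent cells were lower in the progenitors (median log2 change -3.52) and all 8 of nascent mesoderm, among them the sort antigen NCAM1, were higher (4.71). Progenitor arrays 2 and 3 were closer to each other (7 genes over 2-fold apart) than either was to progenitor array 1 (208 and 180 genes). On array 1 all 13 endothelial and blood markers were above the mean of arrays 2 and 3, by a median of 1.40. For ID1, ID4 and SMAD1, the members that differed there by more than 0.5 on the log2 scale, the change without array 1 is given. Each level is log2(intensity + 16) after quantile normalization, each change is progenitor minus hESC on that scale, and a call is a limma adjusted p under 0.05 over all genes. The changes of dim genes are understated on this scale. The median change of all genes was 0.04, against -0.15 when arrays were centred on their median and 0.52 when they were scaled on hybridization controls. Increases made up 55.8% of called genes in the first case, 37.3% in the second and 87.7% in the third.

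Of the 10 genes, 9 were called higher in the progenitors by limma and 0 lower. At an unadjusted p under 0.05 the counts were 10 and 0, beside 5914 higher and 4668 lower of all 19775 genes. On the brightest probe set of each gene SMAD6 rose most, then SMAD9, ID4 and ID2, each more than 4-fold. On the mean of each gene's probe sets the order was ID2 (3.23), ID4 (2.52), SMAD9 (2.13) and SMAD6 (1.77), the last under 4-fold. That mean gives dim probe sets of ID4, SMAD9 and SMAD6, which changed little, the same weight as bright ones. SMAD5 was the gene that did not pass. In all genes tested, 26.7% were called higher and 21.2% lower, and 3.14% were called higher with at least 4-fold change, against 4 of these 10. The median change was 1.45 over the 10 genes and 0.04 over all genes. On the brightest probe set, the 3 progenitor arrays lay above the 3 hESC arrays in all 10 genes, while 57.3% of all genes had groups that did not overlap, 32% in this direction.

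**Figure D1:**
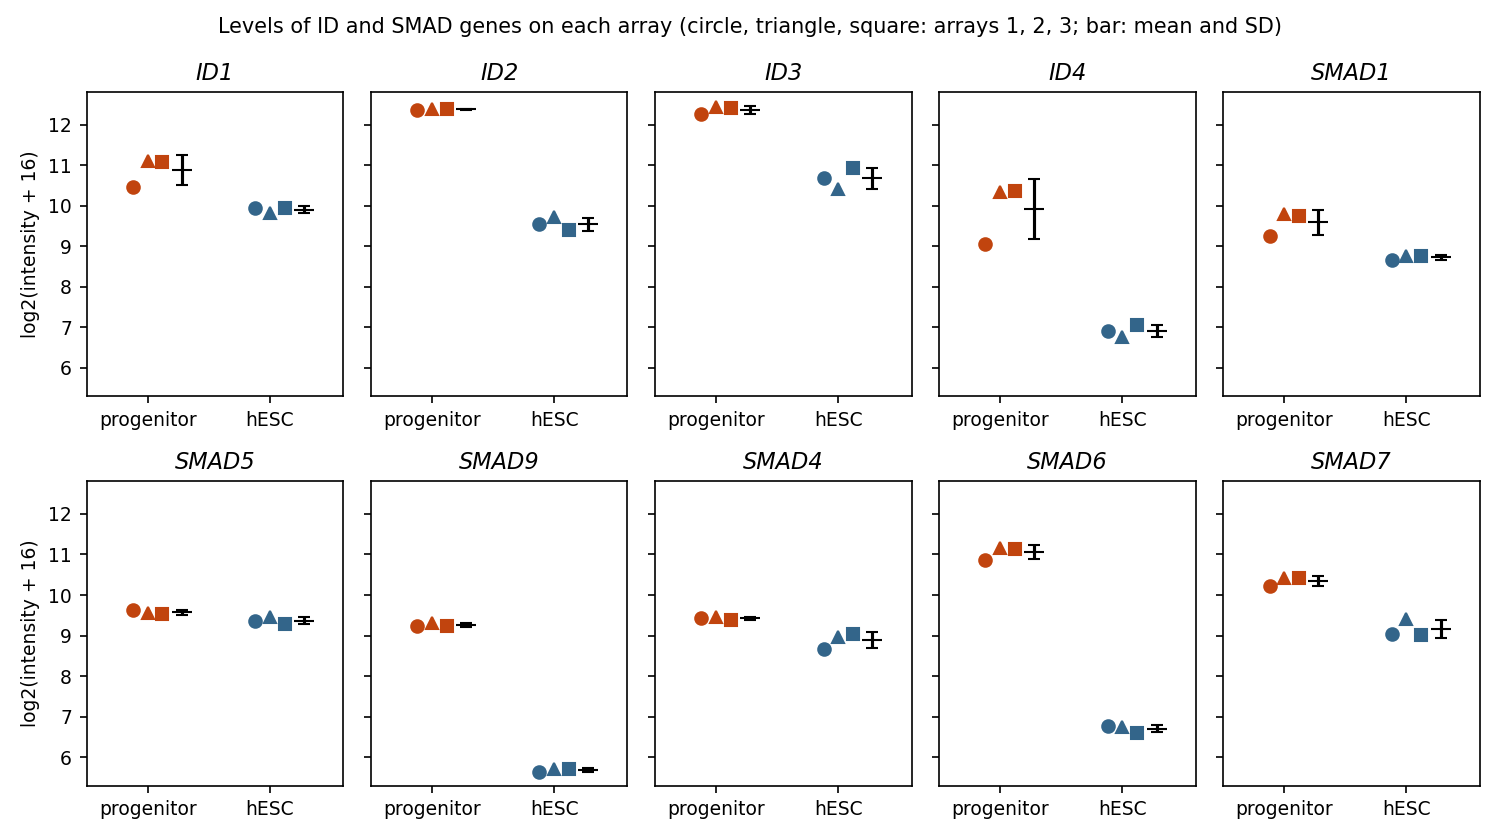
Level of each of the 10 genes on each array, as log2(intensity + 16) after normalization, with progenitor arrays left of hESC arrays. Symbols mark arrays 1, 2 and 3 and bars the mean and SD of 3 arrays. Every progenitor point lies above every hESC point of its gene, and 7 of the 10 genes have their lowest progenitor value on array 1, with the widest gaps in ID4, ID1 and SMAD1.

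ID2, which holds back differentiation in many lineages, had deposited intensities of 5224, 5287 and 5370 on progenitor arrays 1 to 3, against 738, 851 and 655 on hESC arrays 1 to 3. The progenitor arrays lay within a narrow band, and far above the hESC arrays. Its log2 level was 12.38 ± 0.02 in progenitors and 9.55 ± 0.16 in hESC (SD, n = 3 each), a change of 2.83 (SE 0.10, limma adjusted p = 1.00e-06). The other ID2 probe set, with intensities of 2662, 2786 and 2844 in progenitors and 216, 266 and 164 in hESC, rose by 3.62 (SE 0.15). Its name ends in _x_at, which on these arrays marks probes that can match other transcripts.

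ID4, which in several settings is known to counter the other ID proteins, had intensities of 523, 1242 and 1260 on progenitor arrays 1 to 3 and of 105, 95.9 and 114 on hESC arrays 1 to 3. Array 1 was well below the other progenitor arrays but above all hESC arrays. The log2 level was 9.92 ± 0.75 in progenitors and 6.90 ± 0.15 in hESC (SD, n = 3 each), and the change was 3.02 (SE 0.34, limma adjusted p = 0.000251). Without progenitor array 1 the change was 3.46. All 5 ID4 probe sets were called higher when each probe set was tested singly, 4 of them by 2.86 to 3.30. One of these, 226933_s_at, had 130, 281 and 261 in progenitors and 8.37, 11.0 and 10.8 in hESC. The fifth, 229386_at, was dim in both groups, with 12.4 to 13.5 in progenitors and 6.11 to 12.1 in hESC, and rose by 0.30. Its call was lost without any 1 of progenitor arrays 1, 2 and 3 (0.31, 0.29 and 0.31) or of hESC arrays 1 and 3 (0.27 and 0.24), and also with median centring (0.0888) and a pseudocount of 64 (0.11).

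ID3, a BMP target shared by many cell types, had intensities of 4844, 5438 and 5442 in progenitors, against 1686, 1415 and 1929 in hESC. It was abundant in both groups, with no overlap between them. The change was 1.69 (SE 0.14, limma adjusted p = 5.90e-05), with levels of 12.37 ± 0.10 in progenitors and 10.68 ± 0.26 in hESC (SD, n = 3 each). ID1, whose promoter is widely used as a BMP reporter, had 1362, 2138 and 2078 in progenitors and 993, 915 and 976 in hESC. Its progenitor array 1 was the nearest of the 3 to the hESC arrays. ID1 rose by 0.98 (SE 0.18, limma adjusted p = 0.00295), and by 1.19 without progenitor array 1. On the brightest probe sets the order of the changes within the family was ID4, ID2, ID3 and ID1, and ID2 stood before ID4 on the mean of probe sets. The ID4 and ID2 changes differed by less than the SE of the ID4 change, whereas ID2 and ID3 were 1.14 apart on the log2 scale, and ID3 and ID1 0.71 apart.

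The receptor SMADs differed among themselves. SMAD9, also called SMAD8, had intensities of 589, 607 and 574 in progenitors and of 36.0, 39.5 and 36.4 in hESC. The arrays within each group were nearly equal. SMAD9 rose by 3.57 (SE 0.08, limma adjusted p = 1.68e-07), with levels of 9.25 ± 0.05 in progenitors and 5.68 ± 0.04 in hESC (SD, n = 3 each), the 166th largest increase of 19775 genes. Its second probe set was dim, at 24.7, 14.9 and 21.2 in progenitors and 8.32, 7.04 and 6.99 in hESC, and rose by 0.68.

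SMAD1, a receptor SMAD that BMP4 activates, had 593, 848 and 829 in progenitors and 386, 418 and 416 in hESC. As for ID1 and ID4, progenitor array 1 lay between the other progenitor arrays and the hESC arrays. The change was 0.87 (SE 0.15, limma adjusted p = 0.00253), 1.06 without progenitor array 1 and 0.54 on the mean of the SMAD1 probe sets. A second SMAD1 probe set, 210993_s_at, rose by 1.14. The third, 208015_at, pointed the other way, at 36.8, 25.5 and 34.4 in progenitors and 55.4, 63.6 and 39.1 in hESC. Its change of -0.40 did not pass (limma adjusted p = 0.0666), but did without hESC array 3 (-0.53, adjusted p = 0.0226) and with median centring (-0.65). The decrease also passed without normalization (-0.50), without the dimmest 30% (-0.40) and with array weights (-0.46). With scaling on hybridization controls the change turned to 0.0147.

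SMAD5, which acts alongside SMAD1, had 779, 724 and 707 in progenitors and 648, 701 and 606 in hESC on its brightest probe set. On the normalized scale the groups did not overlap, with levels of 9.57 ± 0.06 in progenitors and 9.37 ± 0.09 in hESC (SD, n = 3 each), but the difference of 0.21 (SE 0.09) did not pass (limma adjusted p = 0.0841). It passed with a pseudocount of 64 (0.20), when the dimmest 50% of genes were left out (0.21), with array weights (0.19) and with scaling on hybridization controls (0.69). The other 4 SMAD5 probe sets were called higher, by 0.35 to 1.27, and the mean of all 5 gave 0.71 and a call. The largest of these, 205187_at, had 176, 155 and 131 in progenitors and 44.8, 52.7 and 71.9 in hESC. The 0.35 of 225223_at did not pass without progenitor array 3 (0.34, limma adjusted p = 0.0521) or with median centring (0.18).

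SMAD4, the partner that all receptor SMADs share, had probe sets that disagreed in direction. The brightest had 683, 670 and 647 in progenitors and 390, 486 and 503 in hESC, with no overlap, and rose by 0.54 (SE 0.11, limma adjusted p = 0.00515). Another, 235725_at, had 579, 712 and 677 in progenitors and 453, 447 and 462 in hESC and rose by 0.52. In contrast 1565703_at had 28.4, 31.0 and 35.6 in progenitors and 191, 259 and 122 in hESC and fell by 2.03 (SE 0.23, limma adjusted p = 0.000301). The remaining 2 did not pass, at -0.05 and -0.19. The mean of the 5 SMAD4 probe sets was lower in progenitors, at -0.24 (limma adjusted p = 0.0407), so the direction given for SMAD4 held for its brightest probe set and turned on the mean. Which transcripts of SMAD4 each probe set reads is not given in the sources used here.

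**Figure D2:**
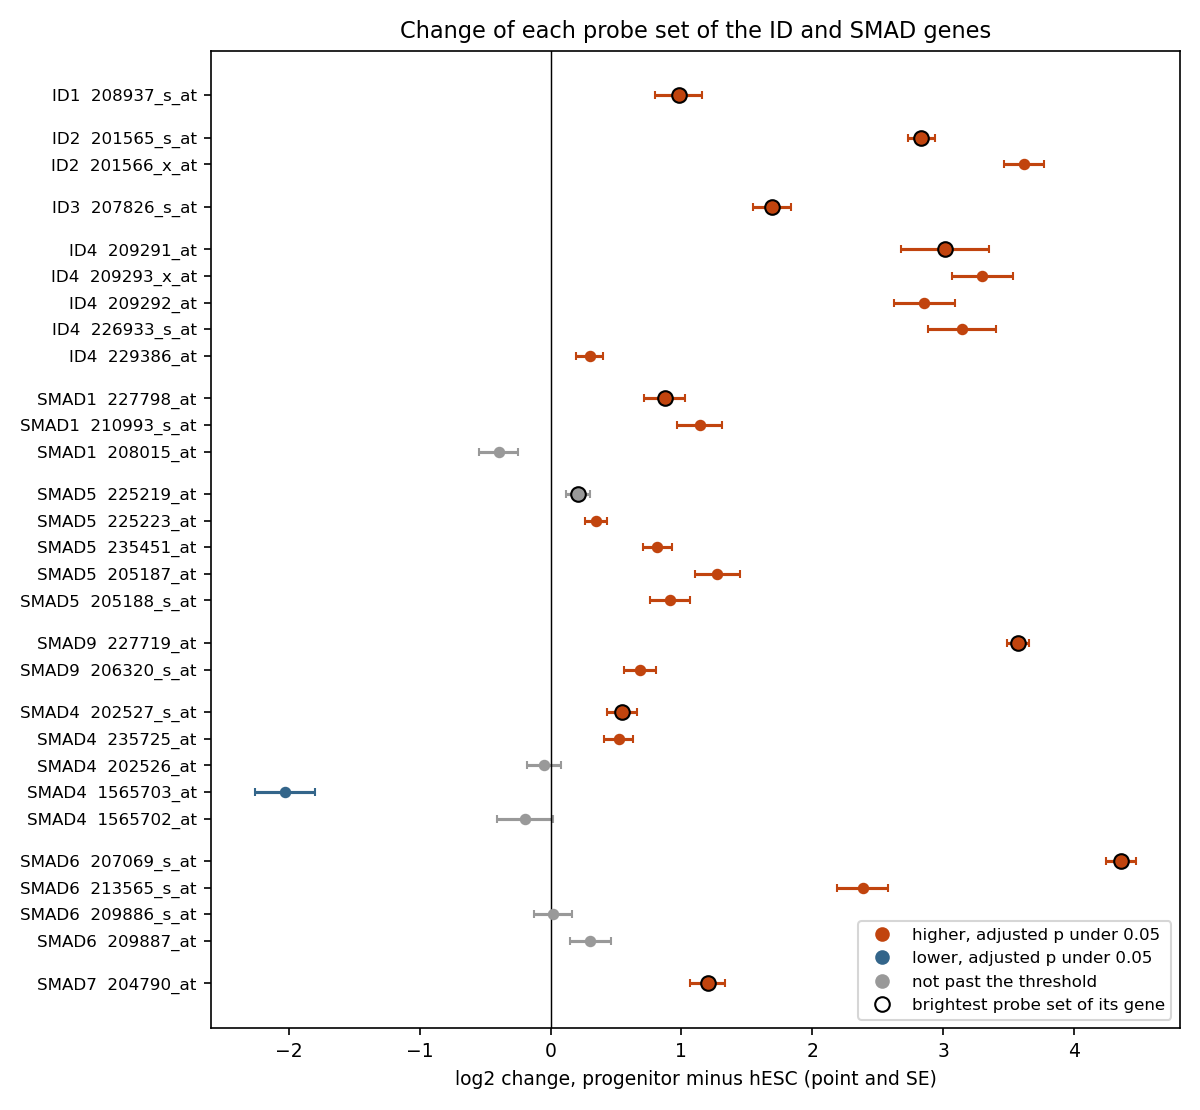
Change of each of the 29 probe sets, as log2 progenitor minus hESC with its SE, grouped by gene, with the brightest probe set of each gene ringed. The ID2 and ID4 probe sets lie at 2.83 or more with 1 exception at 0.30, SMAD4 has 1 probe set at -2.03, and SMAD6 spans 0.02 to 4.36.

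Over the 29 probe sets 22 were called higher and 1 lower, where 24.2% of 41091 probe sets with a gene of their own were called higher and 19.2% lower. The 6 that did not pass were 2 each of SMAD4 and SMAD6 and 1 each of SMAD1 and SMAD5.

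The inhibitory SMADs rose by different amounts. SMAD6 had 1803, 2224 and 2186 in progenitors and 95.2, 94.5 and 79.4 in hESC. On the brightest probe sets no other gene of the 10 changed as much, and SMAD6 had the 92nd largest increase of 19775 genes. On the mean of probe sets ID2, ID4 and SMAD9 changed more. The level was 11.06 ± 0.17 in progenitors and 6.70 ± 0.09 in hESC (SD, n = 3 each), a change of 4.36 (SE 0.11, limma adjusted p = 2.44e-07). A second probe set, 213565_s_at, had 77.2, 106 and 114 in progenitors and 6.38, 12.8 and 1.54 in hESC and rose by 2.39. The last 2 SMAD6 probe sets were dim throughout, at 2.54 to 33.2 in progenitors and 1.00 to 47.0 in hESC, and did not pass (0.02 and 0.30). Both probe sets that rose have names ending in _s_at, which marks probes shared by several transcripts, so the SMAD6 call was lost when such probe sets were left out (0.30, limma adjusted p = 0.161).

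SMAD7 had 1154, 1324 and 1306 in progenitors and 508, 680 and 494 in hESC on its only probe set. The groups were well apart, and SMAD7 was already well expressed in hESC. It rose by 1.20 (SE 0.13, limma adjusted p = 0.000226), with levels of 10.35 ± 0.12 in progenitors and 9.15 ± 0.22 in hESC (SD, n = 3 each). On the brightest probe sets the change of SMAD6 exceeded that of SMAD7 by 3.16 on the log2 scale. On the mean of each gene's probe sets the changes were 1.77 and 1.20. Without probe sets ending in _s_at or _x_at SMAD6 was at 0.30, below SMAD7. That value came from 209887_at, which was near the floor, at 2.54 to 10.95 in progenitors and 1.00 to 4.51 in hESC.

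Progenitor array 1 stood apart for part of the group. The level on it minus the mean of arrays 2 and 3 was -1.30 on the log2 scale for ID4, -0.64 for ID1 and -0.53 for SMAD1. Of all genes, 2.46% were lower on that array by more than 0.5 and 0.157% by more than 1. In contrast ID2 (-0.02), SMAD9 (-0.04), SMAD4 (0.02) and SMAD5 (0.10) were nearly level between the progenitor arrays on their brightest probe sets. ID3 (-0.17), SMAD7 (-0.21) and SMAD6 (-0.29) lay in between. Other probe sets did not all follow. SMAD4 235725_at was at -0.30, and a probe set shared by ID2 and ID2B had 391 on array 1 against 976 and 992. The 13 endothelial and blood markers moved the other way on array 1. Their summed intensities were 11210, 5570 and 5833 on progenitor arrays 1 to 3 and 2222 to 2856 on hESC arrays. KDR alone had 4389, 3457 and 3538 in progenitors and 1484 to 2141 in hESC, most of the hESC sums. CDH5 (VE-cadherin) had 1012, 102 and 121 in progenitors and 1.40, 1.90 and 2.38 in hESC, and TAL1, a blood and endothelial factor, had 642, 90.4 and 114 in progenitors and 25.0, 32.9 and 18.7 in hESC. PECAM1 was at 42.6 to 51.5 in progenitors and 47.9 to 58.7 in hESC. The part of such cells in the ID and SMAD values was not tested. Without array 1, 9 of the 10 genes were again called higher and none lower.

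**Figure D3:**
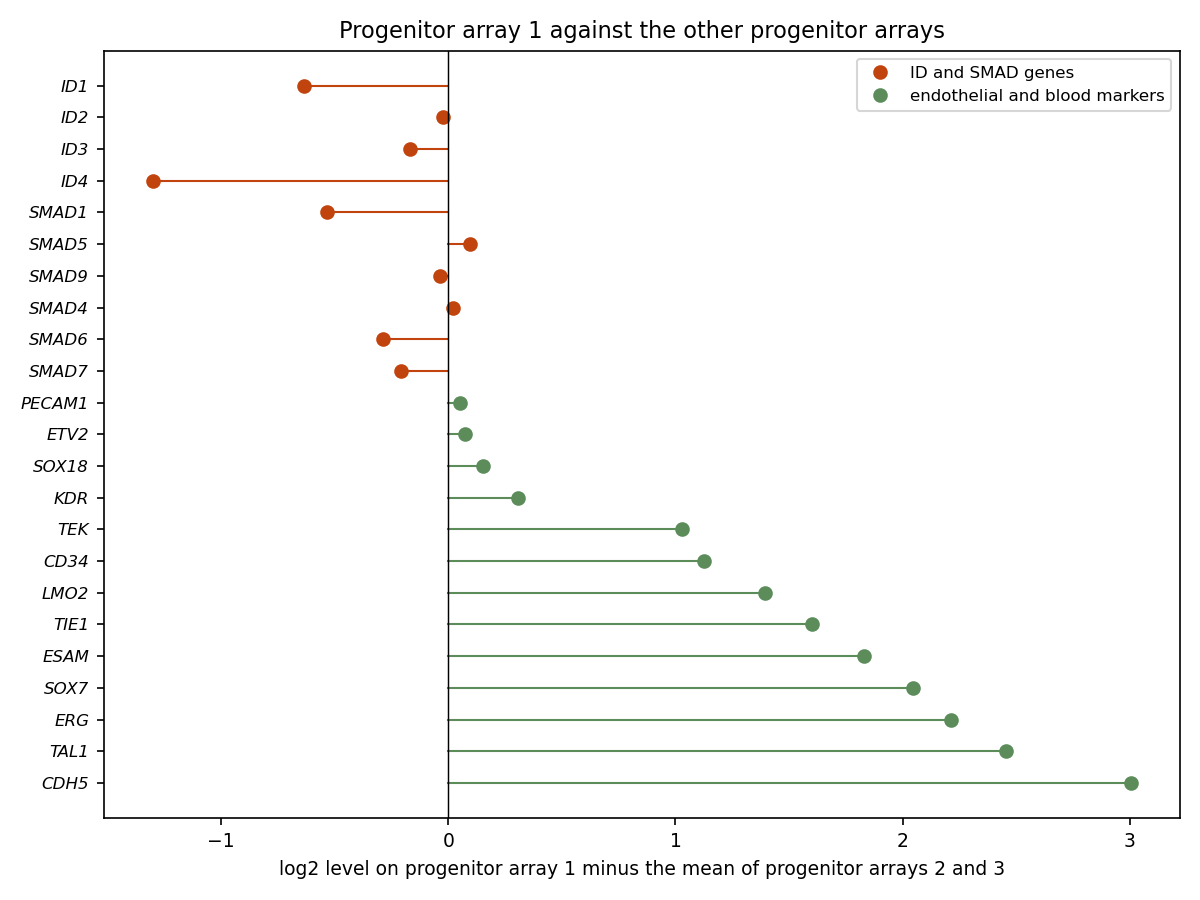
Level on progenitor array 1 minus the mean of progenitor arrays 2 and 3, on the log2 scale, for the 10 ID and SMAD genes and for the 13 endothelial and blood markers. ID4, ID1 and SMAD1 lie between -1.30 and -0.53, and the markers between 0.05 and 3.00.

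Other cell types were checked with the same kind of list. Of 6 measured endoderm markers 3 were higher and 1 lower, with SOX17 (2.36) and CXCR4 (1.80) higher and AFP (-0.58) lower, and with summed intensities of 519 to 665 in progenitors and 461 to 527 in hESC. Of 7 neuroectoderm markers 1 was higher, LHX2 (1.67), at 136, 37.5 and 46.7 on progenitor arrays 1 to 3, with sums of 104 to 209 in progenitors and 65.7 to 74.7 in hESC. Of 8 trophoblast and amnion markers 5 were higher, among them TFAP2A (4.19), KRT7 (2.01) and HAND1, which is also a mesoderm gene. The sums were 7269 to 7477 in progenitors, most of it HAND1, and 127 to 137 in hESC, where HAND1 was at 14.2 to 28.4. The placental genes CGA and GCM1 were at 6.22 to 9.09 in progenitors and 2.50 to 8.75 in hESC. The part of these cell types in the ID and SMAD changes was not tested.

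Upstream of the SMADs stand the BMP-family ligands and receptors. Of 12 ligands measured, 4 were called higher and 2 lower, shares near those of all genes (26.7% and 21.2%). BMP4, the ligand that had also been added to the medium, rose by 6.11, BMP5 by 3.81 and BMP2 by 3.69. The 2 lower calls were small, GDF2 (-0.43) and BMP6 (-0.40). GDF2 did not pass without progenitor array 2 (-0.36) or 3 (-0.41) or without hESC array 1 (-0.36) or 2 (-0.40), and BMP6 did not without progenitor array 1 (-0.36) or 2 (-0.36) or without hESC array 1 (-0.36) or 2 (-0.34). Scaling on hybridization controls gave -0.0123 for GDF2 and 0.0216 for BMP6, and averaging the probe sets of BMP6 gave 0.26. BMP7 and BMP8B did not pass, at -0.24 and 0.40. Of 13 receptors and co-receptors measured 7 were higher and 1 lower. The receptor BMPR1A, also on that list, was not measured. The pseudoreceptor BAMBI, which blocks BMP and TGF-beta receptors, rose by 3.42, the type I receptor ACVRL1 by 3.02 and the co-receptor TGFBR3 (betaglycan) by 1.93 (1.74 without progenitor array 1). RGMA, a BMP co-receptor, fell by 1.94, and its call was lost when probe sets ending in _s_at or _x_at were left out (-0.18). NEO1 and ACVR2A did not pass, at -0.02 and 0.04, though ACVR2A did when its probe sets were averaged (0.46) or those ending in _s_at or _x_at left out (0.89).

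Both activin-branch SMADs rose, SMAD3 by 1.63 (SE 0.12) and SMAD2 by 0.54 (SE 0.08). Of 17 ligases, phosphatases and inhibitors that act on SMADs 8 were higher and 6 lower, where 26.7% of all genes were called higher and 21.2% lower. The phosphatase CTDSP1 rose by 2.43, the ubiquitin ligase SMURF2 by 1.01 (0.79 without progenitor array 1) and CTDSP2 by 0.98, while the ligase NEDD4L fell (-1.49), as did the SMAD4 deubiquitinase USP9X (-0.88) and the nuclear membrane SMAD inhibitor LEMD3 (-0.86). STUB1 and PPM1A did not pass, at 0.14 and -0.02, though PPM1A was called higher without probe sets ending in _s_at or _x_at (1.02). Of 17 nuclear cofactors 7 were higher and 4 lower, led by ZEB2 (4.03), ZEB1 (3.54) and TOB1 (1.04), with values of 3.76 for ZEB2 and 1.26 for TOB1 without progenitor array 1, against the corepressors SKIL (-0.95) and CTBP2 (-0.63) and the coactivator EP300 (-0.43). EP300 did not pass without progenitor array 1 (-0.40), 2 (-0.44) or 3 (-0.45). With scaling on hybridization controls the call of CTBP2 (-0.18) was lost and EP300 turned (0.0209). YY1 and SKI did not pass, at -0.07 and -0.18. With median centring both were called lower (-0.28 and -0.40), and SKI also with array weights (-0.25) and without hESC array 3 (-0.26). With scaling on hybridization controls YY1 (0.38) and SKI (0.26) turned. Of the 4 genes of the TAK1 kinase arm TAB1 (0.72) and MAP3K7 (0.35) rose, MAP3K7 not without hESC array 1 (0.33) or with median centring (0.19). XIAP (-0.28) and TAB2 (-0.00104) did not pass. XIAP was called lower without hESC array 3 (-0.36), without normalization (-0.33), with median centring (-0.48) and with a pseudocount of 64 (-0.27). It was also called without the dimmest 30% or 50% of genes, with the trend and robust options of eBayes and with array weights (-0.28 each). With scaling on hybridization controls XIAP turned (0.19).

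Other genes known to respond to BMP, chosen without the 10, were mostly higher: 16 of 23, with 1 lower and a median of 3.04, against 0.04 for all genes. HAND1 rose by 7.54, BMPER by 7.05 and MSX1 by 6.99, and TFAP2C, a trophoblast and germ cell factor, fell by 0.66, a call lost when hybridization controls set the scale (-0.11). GREM1 and TBX2 did not pass, at 0.24 and 0.52. GREM1 turned to -0.25 without progenitor array 1, and TBX2 passed without hESC array 2 (0.89). The list was drawn up with earlier results of these data known and is no independent evidence of direction.

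Downstream of the ID proteins stand the E proteins and the bHLH factors that pair with them. Of the 3 E proteins TCF4 rose by 0.70 (SE 0.11) and TCF12 by 0.42 (SE 0.09), and TCF3, which encodes E12 and E47, did not pass (-0.06). TCF12 turned to -0.78, with a call, on the mean of its probe sets. Of 24 tissue-restricted bHLH factors 8 were higher, 2 lower and 14 not called, beside 26.7% and 21.2% of all genes called higher and lower. HAND1, MESP1 (5.22, and 5.43 without progenitor array 1) and TCF21 (4.42), factors of lateral, nascent and epicardial mesoderm, rose most, and TCF15 (-0.59) and NEUROG1 (-0.45) fell. TWIST2 and ATOH7 did not pass, at -0.05 and 0.26. With scaling on hybridization controls the calls of TCF15 (-0.16) and NEUROG1 (-0.00887) were lost, as was that of TCF12 with median centring (0.19).

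**Figure D4:**
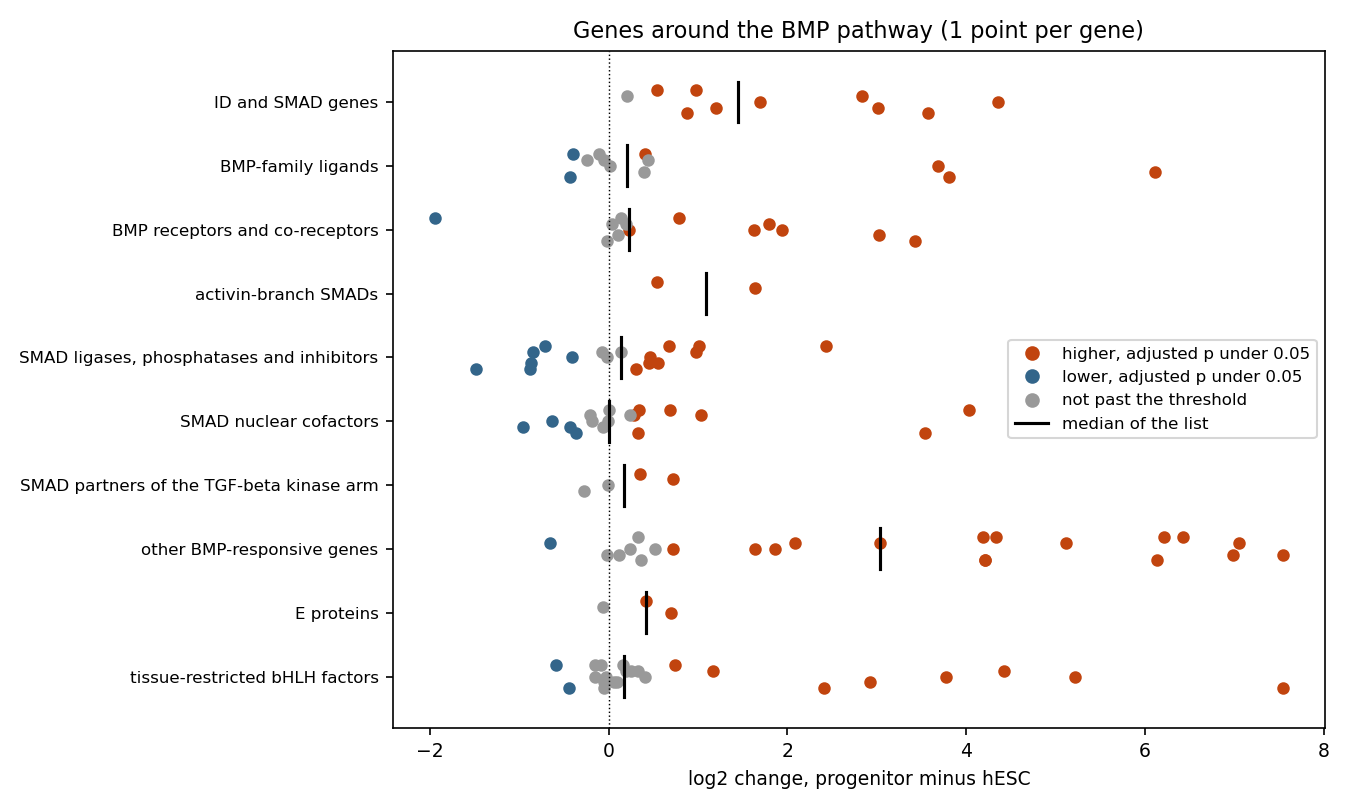
Change of each gene of the ID and SMAD group and of 9 lists around it, as log2 progenitor minus hESC, 1 point per gene with the list's median as a bar. The ID and SMAD genes have a median of 1.45 with none called lower, the BMP-responsive genes a median of 3.04, and the cofactor and ligase lists medians of 0.00 and 0.14.

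The genes with the most similar profiles were found by the root mean square difference between profiles over the 6 arrays, each centred on its own mean. For SMAD9 they were SLCO2A1 (0.077 on the log2 scale), the BMP pseudoreceptor BAMBI (0.078) and FLRT2 (0.083). SMAD6 was nearest to SHISA6 (0.073), FMOD (0.073) and ODAM (0.078), and SMAD7 to CBLB (0.066), FAM219A (0.066) and KLF12 (0.080). ID2 was nearest to RELN (0.061), DOK6 (0.065) and the retinoic acid binding protein CRABP2 (0.077), and ID3 to STN1 (0.019), DDAH2 (0.050) and STK3 (0.058). For ID4 the nearest were LOX (0.086), MOK (0.169) and COL13A1 (0.183). ID1 was nearest to the retinoic acid hydroxylase CYP26A1 (0.052), RAB40C (0.069) and CLDND2 (0.075), and RAB40C (0.041) was also nearest to SMAD1, before JPH2 (0.060) and ADAMTS9-AS1 (0.064). SMAD4 was nearest to TRMT9B (0.041), ZNF184 (0.043) and TRIM69 (0.045), and SMAD5 to OSR2 (0.016), ARAF (0.025) and NUDCD3 (0.029). With 6 arrays in 2 groups such likeness mostly restates a similar size of change.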

How the data were processed

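Transcripts were measured on 6 one-colour arrays, 3 per group as the labels give them. The authors' deposited intensity values are linear. Each step before deposit (probe summary, background correction, scaling) is not given in the sources used here. Among deposited intensities 2.15% equal 1, and 19 lie below it. Intensities were converted to log2(intensity + 16) and quantile-normalized, since the array medians spanned 0.150 on that scale. Probe sets were named from the platform annotation, 41091 with 1 symbol, 1801 with several and 11721 with none. For 41037 of those with 1 symbol, the RefSeq symbol of the gene identifier was used, whether or not it differed. The 62 array controls were not tested. Of each gene the probe set with the highest mean log2 level was used.

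Genes, and separately all probe sets with 1 symbol, were tested with limma 3.58.1 (lmFit, eBayes, R 4.3.3), two-sided, with Benjamini-Hochberg adjustment over all 19775 genes or all 41091 probe sets. Precision is limited by having 3 arrays in each group. P-values measure the spread between these arrays, which may be technical. In simulated data with 19775 genes, only 50 genes were changed at each size tried. The test called 18.0% of genes changed by 0.5 on the log2 scale, 84.0% at 1, 98.0% at 2 and 5 of 19575 unchanged genes. In the real data 9463 genes were called, far more than were changed in the simulation. The adjusted p depends on that number, so these shares do not carry over to the real data.

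The members and lists were chosen with earlier results of these data known. Named were the 10 members and, per list, the 3 largest increases and 3 largest decreases called and the 2 brightest genes not called, plus the 3 nearest profiles per member. Named markers of cell types were picked after their values were seen. SMAD1 and SMAD7 have 5 and 3 promoter windows in the RefSeq table, and the first was used. Same-numbered arrays were checked for pairing. Their deviations correlated at -0.022, 0.027 and -0.038. No pairing was seen, but with 3 arrays per group this check cannot exclude it. The alternatives are in the closing section. Figures were drawn with matplotlib 3.10.9.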

Additional observations from a re-analysis of the deposited data

Results flagged for a closer look

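A probe set annotated to both ID2 and ID2B, and so left out of the gene tests, was higher in progenitors. It had deposited intensities of 391, 976 and 992 on progenitor arrays 1 to 3 and of 177, 211 and 127 on hESC arrays 1 to 3. Its log2 difference was 2.00 (exact permutation test, two-sided, p = 0.1, the smallest that 3 arrays against 3 allow; higher on 3 of 3 progenitor arrays). It was lower on progenitor array 1 than on arrays 2 and 3, while the brightest probe set of ID2 alone had 5224 on array 1 and 5287 and 5370 on arrays 2 and 3. No group of 3 arrays was tested for single outlying arrays.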

How the results depend on the processing

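At least 9 of the 10 genes were called higher under every alternative except that without probe sets ending in _x_at or _s_at. There 5 were called, because ID1, ID2 and ID3 have no other probe sets and SMAD6 gave 0.30. None was called lower, except 1 (SMAD4, -0.24) on the mean of each gene's probe sets. Calls among all genes numbered 14341, and among all probe sets 29354, with scaling on hybridization controls (bioB, bioC and bioD), against 9463 and 17836. Member probe sets called lower were 2 without normalization, with median centring and without the dimmest 30%, 3 with array weights, and 1 to 2 when each array was left out, against 1. The labels do not say whether same-numbered arrays are paired. With the replicate block 8880 genes were called in place of 9463, with 9 members higher and 0 lower, while BMP6 (-0.40) and ID4 probe set 229386_at (0.30) lost their calls and BMP8B (0.40) gained one, and with progenitor arrays 2 and 3 averaged to 1 array 8095, also with 9 and 0.

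Differences turned as follows, mostly in genes that had not passed. Scaling on hybridization controls gave 0.27 for SMAD4 probe set 1565702_at, 0.36 for SMAD4 202526_at, 0.0147 for SMAD1 208015_at, 0.0216 for BMP6, 0.0209 for EP300, 0.21 for BMP7, 0.46 for NEO1, 0.48 for PPM1A, 0.38 for YY1 and TCF3, 0.26 for SKI, 0.50 for TWIST2, 0.19 for XIAP and 0.47 for TAB2. Median centring gave -0.24 for SMAD6 209886_s_at, -0.0741 for ACVR2A and -0.0871 for STUB1. SMAD6 209886_s_at was also at -0.0921 without normalization, -0.14 with array weights and -0.00652 with progenitor arrays 2 and 3 averaged. Array weights gave 0.0106 for NEO1, 0.0489 for PPM1A, -0.30 for GREM1 and 0.12 for TAB2. The mean of probe sets gave 0.26 for BMP6, 0.13 for NEO1, 0.30 for PPM1A, 0.14 for YY1, -0.78 for TCF12 and 0.00897 for TAB2, and leaving out _x_at and _s_at probe sets gave 1.02 for PPM1A, 0.11 for YY1, 0.42 for TCF3 and 0.0572 for TAB2. Leaving out each array gave -0.146 to 0.0625 for SMAD4 202526_at, -0.0711 to 0.176 for SMAD6 209886_s_at, -0.0375 to 0.141 for ACVR2A, -0.0398 to 0.00913 for NEO1, -0.0500 to 0.0276 for PPM1A, -0.0814 to 0.0661 for TAB2 and -0.25 to 0.48 for GREM1.

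Counts of the other lists moved most with scaling on hybridization controls. It gave 9 ligands higher and 0 lower, 12 receptors higher, 3 ligases and phosphatases lower, 11 cofactors higher and 1 lower, 20 bHLH factors higher and 0 lower, and 0 BMP-responsive genes lower. Median centring gave 4 cofactors higher and 7 lower and 1 E protein each way, and the mean of probe sets gave 1 E protein higher and 2 lower. Without the dimmest 50% of genes 2 ligands and 5 bHLH factors were higher. The cause of these shifts was not tested. These list alternatives were chosen after seeing the data.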
